A study of Mus musculus with 8 samples.

Results

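The genes described here are 40 genes of the cell cycle and of DNA replication, among the 53342 genes of each deposited table. They were taken by symbol from a list whose rule uses no measured value, but the list was drawn up with earlier results of these data known. They comprise 12 genes of DNA replication, 23 genes of mitosis and chromosome segregation, and 5 genes of the G1 phase or of other steps. The RNA came from macrophages of infarcted hearts, taken 3 days after the infarction (MI) from C57BL/6 animals that were 8 weeks old and wild type. Cells with much surface Ly6C (Ly6Chi) and with little (Ly6Clo) were sorted apart and kept in medium with fetal calf serum for 24 hours, either with interleukin 21 (IL-21, a cytokine of activated T cells) at 100 ng/mL or without it. The 4 groups were thus Ly6Chi without IL-21, Ly6Chi with IL-21, Ly6Clo without IL-21 and Ly6Clo with IL-21, with 2 libraries each, numbered 1 and 2 in the labels. Every library came from infarcted wild type hearts and from cultured cells, so none shows the cells of an uninjured heart or cells that were never cultured. The labels do not say whether libraries of a group came from separate mice or cultures, so the p-values rest on a spread between libraries that could be technical.

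A dividing cell first loads the MCM helicase, a ring of the proteins Mcm2 to Mcm7, onto its replication origins. In S phase this helicase unwinds DNA, Pcna clamps the polymerases to it, Lig1 joins the finished fragments, and Rrm1, Rrm2, Tyms and Tk1 supply nucleotides. Cyclin D1 (Ccnd1) with Cdk4 or Cdk6 opens the way out of G1, and the cyclins A and B with Cdk1 drive mitosis, where kinases such as Plk1, Aurka and Aurkb and motor proteins such as Kif11 build and use the spindle. Macrophages that arise from recruited monocytes in the injured heart are largely cells that matured from dividing bone marrow precursors, and tissue macrophages can also divide locally. Pcna and the MCM genes also serve DNA repair or are kept in cells between divisions, so their RNA alone is not a count of dividing cells.

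The promoters of both kinds of member are shown because their letters differ in a way that follows the division into replication and mitosis genes. Windows from RefSeq (GRCm38.p6, 250 bases before to 50 after an annotated start) were at hand for 33 of the 40 members, in 37 windows, with no window for Mcm4, Ccna2, Stmn1, Ccnd1, Kif20a, Aurkb and Tpx2. The 3 windows printed belong to Mcm3 and Pcna, replication genes with counts enough for a test, and to Cdk1, the kinase of mitosis. Capitals mark matches to the letters searched on both strands, which were TTTCCCGC, TTTCGCGC, TTTGCCGC or TTTGGCGC for E2F, TTTGAA or TTTAAA for the cell cycle homology region (CHR), and CCAAT for the CCAAT box. None of these words contains another.
Mcm3, chr1:20820263-20820562, minus strand: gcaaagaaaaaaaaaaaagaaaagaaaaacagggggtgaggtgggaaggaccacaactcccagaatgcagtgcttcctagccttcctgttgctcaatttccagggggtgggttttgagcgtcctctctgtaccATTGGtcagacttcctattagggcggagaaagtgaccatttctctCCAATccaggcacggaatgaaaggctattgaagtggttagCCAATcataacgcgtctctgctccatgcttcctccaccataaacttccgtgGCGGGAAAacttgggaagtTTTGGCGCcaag
Pcna, chr2:132253131-132253430, minus strand: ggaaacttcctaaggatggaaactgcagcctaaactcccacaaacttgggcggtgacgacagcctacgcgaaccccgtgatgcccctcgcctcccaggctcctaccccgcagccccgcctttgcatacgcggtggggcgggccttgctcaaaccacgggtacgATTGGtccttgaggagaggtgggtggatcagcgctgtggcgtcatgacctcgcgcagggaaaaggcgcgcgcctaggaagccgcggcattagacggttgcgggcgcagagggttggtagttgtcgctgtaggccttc
Cdk1, chr10:69352863-69353162, minus strand: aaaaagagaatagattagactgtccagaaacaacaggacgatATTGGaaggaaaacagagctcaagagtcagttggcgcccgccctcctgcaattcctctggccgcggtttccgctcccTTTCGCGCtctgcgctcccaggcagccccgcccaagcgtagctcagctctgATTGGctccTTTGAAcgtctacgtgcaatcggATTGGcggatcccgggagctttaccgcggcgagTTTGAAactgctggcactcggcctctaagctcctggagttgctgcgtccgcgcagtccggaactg

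The Mcm3 window held 2 E2F matches, 0 CHR matches and 3 CCAAT matches. The Pcna window held 0, 0 and 1, and the Cdk1 window held 1, 2 and 3. E2F letters were in 5 of 14 replication windows (35.7%), those of Mcm3, Mcm5, Mcm6, Mcm7 and Lig1, in 1 of 20 mitosis windows (5%), that of Cdk1, and in 2.26% of all 32851 windows of that length. CHR letters were in 17 of 20 mitosis windows (85%), in 4 of 14 replication windows (28.6%) and in 27.6% of all windows. CCAAT was in 18 of 20 mitosis windows (90%), in 9 of 14 replication windows (64.3%) and in 37.4% of all windows. A match of letters is a description of the sequence and shows no binding.

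Deposited totals were 224329 to 483593 counts per library, so that 3 counts in one library were worth 6.58 to 14.9 CPM (counts scaled by the normalised library size). The subset labels were matched by Ly6c2, which lay at 372 to 547 CPM in the 4 Ly6Chi libraries and at 12 to 74.6 CPM in the 4 Ly6Clo libraries. Of 10 macrophage markers 9 were above 0 in the tables, among them Adgre1 at 145 to 333 counts and Csf1r at 138 to 304 counts per library, while Itgam was listed at 0 in all 8. S100a8 had 195 counts in all and S100a9 had 2. A count near 0 in these tables therefore does not show that a gene was silent. Markers of T and NK cells summed to 9.2 counts over all libraries, with Cd3g at 0. In such bulk libraries fewer dividing cells and less RNA per dividing cell cannot be told apart.

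The 40 genes together gave 1385 counts over the 8 libraries, which was 0.0551% of all counts. The median member had 11.6 counts over all 8 libraries, 18 members had under 10, and 18 never rose above 3 counts in any library. Only 11 members were above 0 in all 8 libraries. The counts were unevenly shared: the 12 replication genes held 937 (67.6%), the 23 mitosis genes 270 (19.5%) and the 5 others 178 (12.9%). Pcna alone had 572 counts, which was 41.3% of the counts of all members and 61.0% of those of the replication genes. These are shares of counts and not levels per length of transcript. Of the 217 values above 0, 87 were not whole at a tolerance of 0.001.

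**Figure D1:**
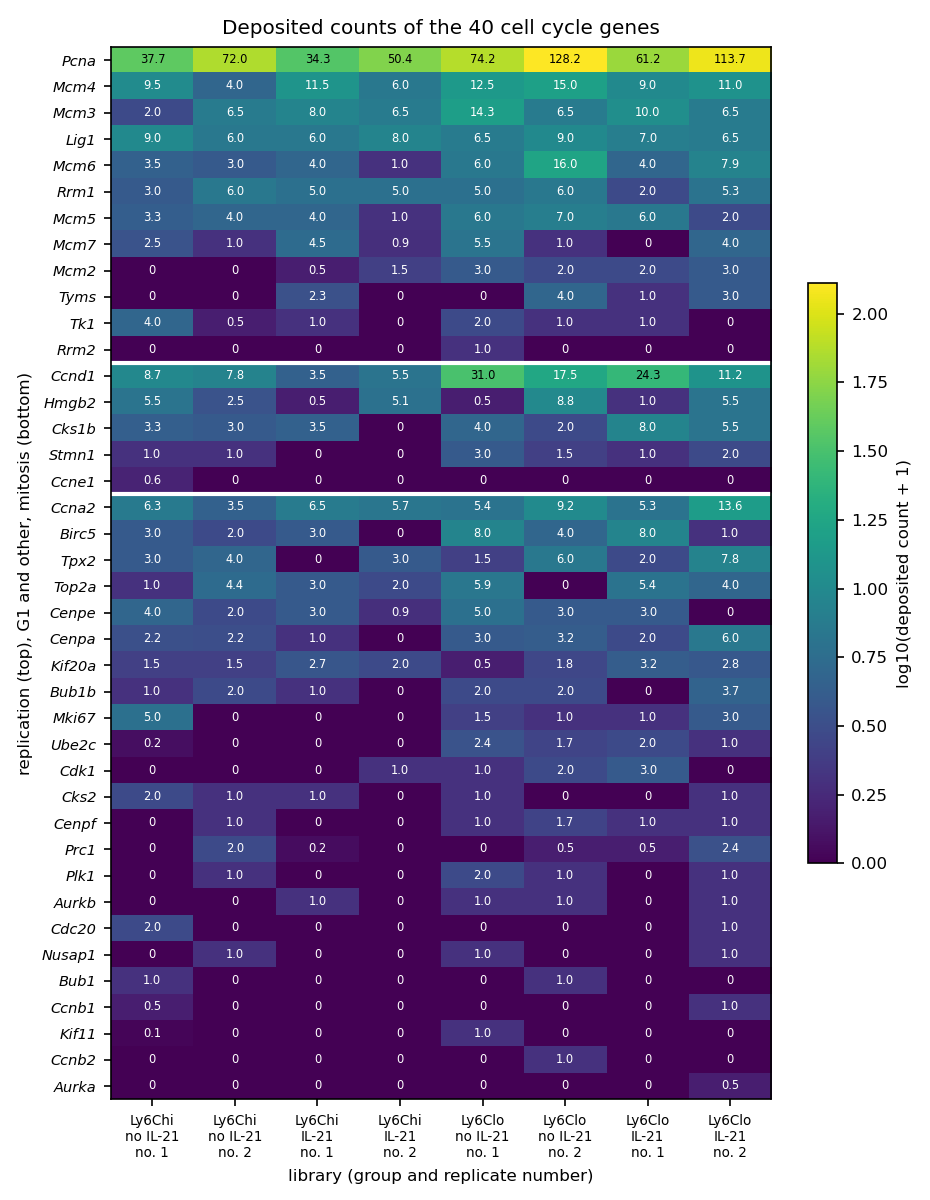
Deposited counts of each of the 40 genes (rows, in 3 blocks from replication at the top through G1 and other genes to mitosis at the bottom) in the 8 libraries (columns), with colour on a log10(count + 1) scale and the count printed in each cell. Pcna is the bright row at 34.3 to 128 counts, and most of the mitosis block is at or near 0.

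Pcna, the sliding clamp of the replication fork, was the member with the most counts (chromosome 2, 132249162 to 132253314, minus strand, GRCm38). Its level was 155 and 275 CPM in Ly6Chi without IL-21 (215 ± 84.7, SD, n = 2), and 129 and 250 CPM in Ly6Chi with IL-21 (190 ± 85.7, SD, n = 2). In Ly6Clo it was 308 and 281 CPM without IL-21 (295 ± 18.7, SD, n = 2) and 244 and 280 CPM with IL-21 (262 ± 25.1, SD, n = 2). The number 1 libraries of Ly6Chi were the lowest of all. The number 2 libraries of Ly6Chi, at 275 and 250 CPM, were above number 1 of Ly6Clo with IL-21, at 244 CPM, so the subsets overlapped. Its pseudogene Pcna-ps2 had 7.89 counts in all and Pcna-ps1 had 0. Pcna had values that were not whole in 7 of 8 libraries, so part of its reads may have been shared with such copies.

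The MCM helicase was seen at a lower count, and only Mcm3 and Mcm4 passed the filter on low counts (edgeR's filterByExpr), which left 5256 genes to test. Mcm3 (chromosome 1, 20802968 to 20820312, minus strand) was at 8.22 and 24.8 CPM in Ly6Chi without IL-21 (16.5 ± 11.7, SD, n = 2), and at 30.1 and 32.3 CPM with IL-21 (31.2 ± 1.53, SD, n = 2). In Ly6Clo it was at 59.5 and 14.3 CPM without IL-21 (36.9 ± 32.0, SD, n = 2) and at 39.97 and 16.0 CPM with IL-21 (28.0 ± 16.9, SD, n = 2). The Ly6Chi groups did not overlap, but they rest on 2 and 6.5 counts without IL-21 and 8 and 6.5 with it, and in Ly6Clo the number 1 libraries were the higher ones whatever the stimulation. Mcm4 (chromosome 16, 15623897 to 15637400, minus strand) was at 39.0 and 15.3 CPM in Ly6Chi without IL-21 (27.1 ± 16.8, SD, n = 2) and at 43.3 and 29.8 CPM with it (36.5 ± 9.53, SD, n = 2). In Ly6Clo it was at 51.9 and 32.9 CPM without IL-21 (42.4 ± 13.4, SD, n = 2) and at 36.0 and 27.1 CPM with it (31.5 ± 6.27, SD, n = 2). Mcm4 overlapped between all groups, with the number 1 library higher in each.

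The other 4 subunits were too sparse to test. Mcm6 had 4 and 1 counts in Ly6Chi with IL-21, 3.5 and 3 without it, 4 and 7.87 in Ly6Clo with IL-21, and 6 and 16 without it. Mcm5 had 4 and 1, 3.25 and 4, 6 and 2, and 6 and 7 counts in those groups, in the same order. For both subunits the number 2 library of Ly6Chi with IL-21, the shallowest of all, had the lowest count. Mcm7 had 19.4 counts in all and Mcm2 had 12. Summed over the 6 subunits, the level was 85.2 and 70.5 CPM in Ly6Chi without IL-21, 122 and 84.1 with it, 196 and 104 in unstimulated Ly6Clo, and 124 and 84.6 with IL-21. The number 1 library of Ly6Clo without IL-21 stood highest, from 47.3 counts. The other 7 libraries lay between 70.5 and 124 CPM.

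Of the remaining replication genes, Lig1, the ligase that seals Okazaki fragments, had the most even counts. It had 9 and 6 counts in unstimulated Ly6Chi, 6 and 8 with IL-21, 6.5 and 9 in unstimulated Ly6Clo, and 6.98 and 6.5 with IL-21. Rrm1, the large subunit of ribonucleotide reductase, had 3 and 6 counts in unstimulated Ly6Chi, 5 and 5 with IL-21, 5 and 6 in unstimulated Ly6Clo, and 2 and 5.33 with IL-21. Scaled to CPM, Lig1 overlapped between all groups. Rrm1 was at 12.3 and 22.9 CPM in unstimulated Ly6Chi, 18.8 and 24.8 with IL-21, 20.8 and 13.2 in unstimulated Ly6Clo, and 7.99 and 13.1 with IL-21, so that with IL-21 the subsets did not overlap, on 2 to 5.33 counts a library. Rrm2, the partner subunit made chiefly in S phase, had 1 count over all 8 libraries, against 37.3 for Rrm1. Tyms and Tk1, which make and salvage thymidine nucleotides, had 10.3 and 9.5 counts in all.

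Ccnd1, the D cyclin of early G1, was the only member outside the replication list that passed the filter (chromosome 7, 144929931 to 144939925, minus strand). It was at 35.6 and 29.9 CPM in Ly6Chi without IL-21 (32.7 ± 4.05, SD, n = 2), and at 13.2 and 27.3 CPM with IL-21 (20.2 ± 9.99, SD, n = 2). In Ly6Clo it was at 129 and 38.4 CPM without IL-21 (83.5 ± 63.8, SD, n = 2), and at 97.3 and 27.5 CPM with it (62.4 ± 49.3, SD, n = 2). Its 2 highest values came from the number 1 libraries of Ly6Clo, and the number 2 libraries of Ly6Clo lay within or near the range of Ly6Chi. The 3' end of Ccnd1, where this kit reads, lies within LTO1 on the opposite strand over 1771 bases (144929931 to 144931701), and whether strand was used in counting is not given in the sources used here. LTO1 had 93.4 counts in all against 109.5 for Ccnd1. It had 11 and 3.83 in Ly6Chi without IL-21, 7.5 and 3 with it, 13.5 and 25 in unstimulated Ly6Clo, and 9.33 and 20.2 with IL-21. These counts are not scaled, and the number 2 libraries of Ly6Clo were the deepest, at 483593 counts without IL-21 and 444670 with it. Relative to library size too, LTO1 was higher in Ly6Clo than in Ly6Chi in every same-numbered pair. Reads of Ccnd1 and LTO1 cannot be told apart without strand. Ccnd1 is therefore reported as uncertain.

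Cks1b, a partner of the cyclin-dependent kinases, had 3.33 and 3 counts in unstimulated Ly6Chi, 3.5 and 0 with IL-21, 4 and 2 in unstimulated Ly6Clo, and 8 and 5.5 with IL-21. Hmgb2, a chromatin protein abundant in cycling cells, had 5.5 and 2.5 counts in unstimulated Ly6Chi, 0.5 and 5.08 with IL-21, 0.5 and 8.83 in unstimulated Ly6Clo, and 1 and 5.5 with IL-21. Hmgb2 was lower in the number 1 library in every group but Ly6Chi without IL-21. Stmn1, a protein that destabilises microtubules, had 9.5 counts in all, and Ccne1, the cyclin of the G1 to S transition, had 0.627.

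**Figure D2:**
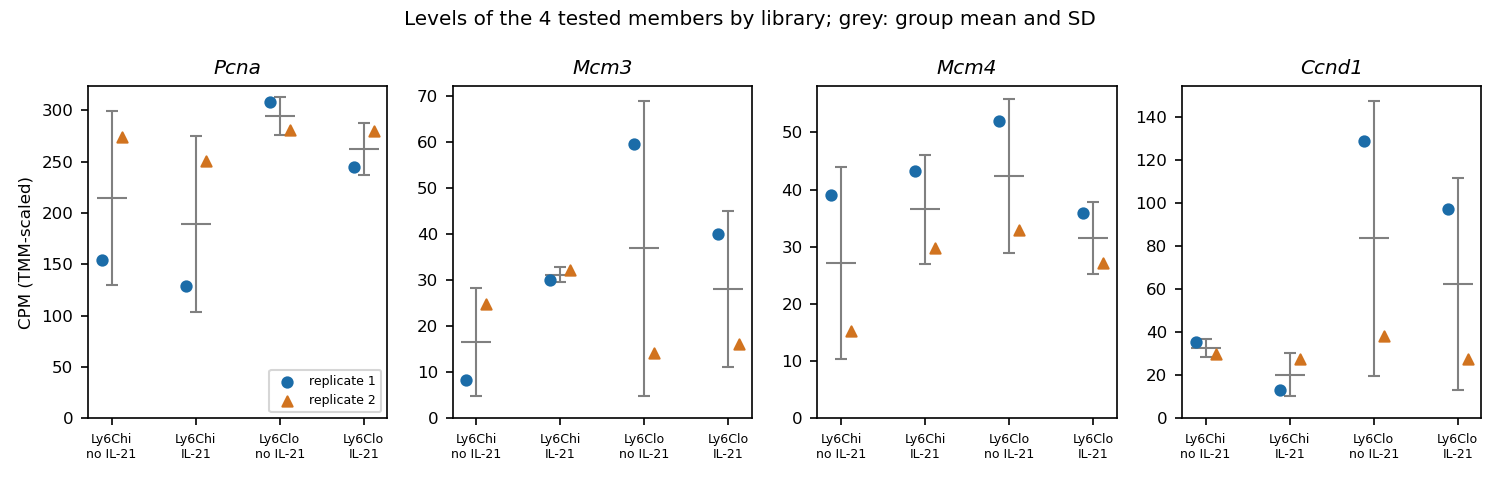
CPM of Pcna, Mcm3, Mcm4 and Ccnd1 (one panel each, each with its own axis from 0) in the 4 groups, with circles for replicate 1, triangles for replicate 2, and grey marks for the group mean with its SD. The replicates are far apart for Ccnd1 in Ly6Clo (129 and 38.4 CPM without IL-21), and for Pcna the lowest points are the replicate 1 libraries of Ly6Chi.

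No mitosis gene passed the filter on low counts. The median of the 23 was 6 counts over all 8 libraries, 14 had under 10, and 14 never rose above 3 counts in a library. Only Ccna2 and Kif20a were above 0 in all 8 libraries, Kif20a at 0.5 to 3.17 counts. Ccna2, the cyclin of S phase and entry into mitosis, had 6.33 and 3.5 counts in unstimulated Ly6Chi, 6.5 and 5.72 with IL-21, 5.42 and 9.22 in unstimulated Ly6Clo, and 5.35 and 13.6 with IL-21. None of its 8 values was whole, and its 3' end lies within Exosc9 on the opposite strand over 863 bases, a gene with 80.2 counts, so Ccna2 is uncertain in the same way as Ccnd1. Birc5, the survivin subunit of the chromosomal passenger complex, had 3 and 2 counts in unstimulated Ly6Chi, 3 and 0 with IL-21, 8 and 4 in unstimulated Ly6Clo, and 8 and 1 with IL-21.

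The genes most used as labels of dividing cells were near the floor of these libraries. Mki67, whose protein is the Ki-67 antigen, had 5 and 0 counts in unstimulated Ly6Chi, 0 and 0 with IL-21, 1.51 and 1 in unstimulated Ly6Clo, and 1 and 3 with IL-21. Top2a, the topoisomerase that untangles sister chromatids, had 1 and 4.43, 3 and 2, 5.86 and 0, and 5.36 and 4 counts in the groups taken in that order. Tpx2, a spindle assembly factor, had 27.3 counts in all and at most 7.8 in a library. Cdk1 had 7 counts in all, and its cyclins Ccnb1 and Ccnb2 had 1.5 and 1. The kinases were as sparse, with Plk1 at 5 counts in all, Aurkb at 4, Bub1 at 2 and Aurka at 0.5. The motor Kif11 had 1.07 counts and Kif20a had 16. The centromere and kinetochore genes Cenpe, Cenpa, Bub1b and Cenpf had 20.9, 19.6, 11.7 and 5.67 counts in all, and the genes for exit from mitosis, Ube2c and Cdc20, had 7.33 and 3. Cks2, Prc1 and Nusap1 had 6, 5.53 and 3. With no filter on low counts 39 members could be tested, and 0 were called in any comparison. Of the members, 8 (Ccnd1 and Ccna2 among them) have their 3' end within another coding gene, the others being Mcm7, Tk1, Cdc20, Ube2c, Kif20a and Prc1.

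Fewer members were seen with IL-21 than without it in Ly6Chi. Of the 40, 29 and 26 were above 0 in Ly6Chi without IL-21 and 24 and 17 with it, against 32 and 31 in unstimulated Ly6Clo and 26 and 32 with IL-21. Of all 53342 genes, 12630 and 12703 were above 0 in Ly6Chi without IL-21 and 12792 and 12102 with it. In Ly6Clo these were 12861 and 14445 without IL-21 and 12818 and 13797 with it. Of the 23 mitosis genes, 15 and 13 were above 0 in Ly6Chi without IL-21, 10 and 6 with it, 17 and 16 in unstimulated Ly6Clo, and 12 and 18 with IL-21. The library with the fewest, number 2 of Ly6Chi with IL-21, was also the shallowest, at 224329 counts, whereas number 1 with IL-21 was deeper than number 1 without it (287131 against 261205 counts). The part of depth in these numbers was not tested.

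Whether IL-21 changed the cycle genes was asked first over both subsets. None of the 4 tested members passed the test in any of the IL-21 comparisons, with or without the replicate number as a block. By the quasi-likelihood test of edgeR, adjusted over all genes (Benjamini-Hochberg), 0 of 4 members were called for the effect averaged over the subsets, where 0.171% of all 5256 genes were called. Ccnd1 had a log2 fold change with IL-21 of -0.54 (SE 0.58), Pcna of -0.19 (SE 0.23), Mcm3 of 0.30 (SE 0.59) and Mcm4 of 0.05 (SE 0.39). All 4 changes were smaller than their SE and had an adjusted p of 0.99975, and when 1 library was left out those of Pcna, Mcm3 and Mcm4 crossed 0 and that of Ccnd1 ran from -1.06 to -0.06. In Ly6Chi alone 0 of 4 members were called, against 0.019% of all genes, with log2 fold changes from -0.63 to 0.91. In Ly6Clo alone 0 of 4 were called, against 0.133%, with log2 fold changes from -0.44 to -0.15. For the difference between the subsets 0 of 4 were called, against 0% of all genes, and the lowest unadjusted p was 0.320. No member reached an unadjusted p under 0.05 in these 4 comparisons, where 281, 185, 185 and 92 of all genes did. DESeq2 and limma-voom called 0 members as well. With these SEs, changes of the size seen in single genes here could not be told from 0.

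Whether the subsets differed was asked without IL-21, with IL-21 and over both. Ccnd1 and Pcna were higher in Ly6Clo than in Ly6Chi in the mean of every pair of groups, but neither passed the main test. Without IL-21, 0 of 4 members were called, against 0.0381% of all genes, and with IL-21 0 of 4, against 0.019%. Averaged over stimulation 0 of 4 were called, against 0.19%. There Ccnd1 had a log2 fold change of 1.28 (SE 0.56, edgeR adjusted p = 0.636) and Pcna of 0.47 (SE 0.23, edgeR adjusted p = 0.636). Mcm3 had 0.36 (SE 0.60) and Mcm4 0.10 (SE 0.40), and both crossed 0 when 1 library was left out. Ccnd1 then ran from 0.75 to 1.65 and Pcna from 0.26 to 0.74. Ccnd1 was the only member with an unadjusted p under 0.05 (0.0482), as were 409 of all genes. By DESeq2 and by limma-voom 0 members were called.

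The call for Ccnd1 depended on how the replicate numbers were treated. When the number entered the fit as a block, 132 genes (2.51%) were called for the averaged subset difference and Ccnd1 was the 1 member called, at a log2 fold change of 1.33 (SE 0.36, edgeR adjusted p = 0.0476). Pcna was not called there, at 0.47 (edgeR adjusted p = 0.165). In the other 6 comparisons the block called 0 of 4 members, against 1.14% of all genes for IL-21 over both subsets, 0.266% in Ly6Chi, 0.552% in Ly6Clo, 0.019% for their difference, 0.59% for the subsets without IL-21 and 0.78% with it. Ccnd1 was also the only member that differed between the numbers, at a log2 fold change of -1.20 for number 2 against number 1 (edgeR adjusted p = 0.0272), as did 430 of the 5256 genes. Taken within a number, the difference between Ly6Clo and Ly6Chi in Ccnd1, as a log2 ratio of CPM averaged over stimulation, was 2.37 in number 1 and 0.19 in number 2. For Pcna these were 0.96 and 0.10. Both differences thus came chiefly from the number 1 libraries, and the labels do not say what a number stands for. The blocked call for Ccnd1 also carries the uncertainty of its overlap with LTO1.

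Summed over all members of a list, passed by the filter or not, the replication genes lay at 349 ± 61.5 CPM in Ly6Chi without IL-21 and at 352 ± 66.2 CPM with it (SD, n = 2 each). The libraries behind these means were 306 and 393 CPM without IL-21 and 305 and 399 CPM with it, so both groups covered the same range. In Ly6Clo the sum was 565 and 429 CPM without IL-21 (497 ± 95.5, SD, n = 2) and 412 and 401 CPM with it (407 ± 7.83, SD, n = 2). All 4 Ly6Clo sums were above all 4 Ly6Chi sums, by as little as 401 against 399 CPM. Without Pcna, the 11 other genes summed to 151 and 118 CPM in Ly6Chi without IL-21, 176 and 149 with it, 257 and 148 in unstimulated Ly6Clo, and 168 and 121 with IL-21. Without Pcna the subsets therefore overlapped. Sums over members are given with no test, since the list was drawn up with results of these data known.

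The mitosis genes summed to 135 and 105 CPM in Ly6Chi without IL-21 (120 ± 20.9, SD, n = 2), from 32.9 and 27.6 counts, and to 84.0 and 72.7 CPM with IL-21 (78.3 ± 8.03, SD, n = 2), from 22.3 and 14.6 counts. The ratio with over without IL-21 was 0.623 in number 1 and 0.690 in number 2. The 95% Poisson intervals overlapped in both pairs, at 92.8 to 190 against 52.9 to 127 CPM and at 69.8 to 153 against 40.3 to 121 CPM. Such an overlap is not a test of the difference. In Ly6Clo the sums were 179 and 88.0 CPM without IL-21 (134 ± 64.7, SD, n = 2) and 145 and 130 CPM with it (138 ± 10.8, SD, n = 2). The ratios there were 0.810 and 1.48, on both sides of 1. With IL-21, Ly6Clo was above Ly6Chi at ratios of 1.73 and 1.79. Without IL-21 the ratios were 1.33 and 0.835.

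Fibroblast, cardiomyocyte and dendritic cell markers, like the mitosis genes, had lower sums with IL-21 in both Ly6Chi pairs. All 8 fibroblast markers were above 0, and they summed to 82.2 and 194 CPM in Ly6Chi without IL-21, 25.2 and 94.3 with it, 24.9 and 36.2 in unstimulated Ly6Clo, and 144 and 164 with IL-21. Endothelial markers, of which Emcn and Tie1 were at 0 and Kdr gave nearly all counts, summed to 140 and 257, 97.8 and 338, 64.3 and 204, and 104 and 191 CPM in the same order. The 6 cardiomyocyte markers, all above 0 in some library, summed to 4.11 and 49.4, 0 and 19.4, 0.496 and 3.29, and 81.9 and 14.8 CPM. Of the 6 dendritic cell markers 4 were above 0, with Cd209a and Clec9a at 0. They summed to 18.5 and 41.9, 1.88 and 4.96, 27.0 and 87.8, and 9.99 and 24.6 CPM. Of their 76 counts over all libraries Ccr7 gave 47, at 0 to 29 per library. Of the 8 neutrophil markers 4 were above 0, with Elane, Ly6g, Mpo and Retnlg at 0. Their sum lay between 66.4 and 183 CPM and was higher with IL-21 in every same-numbered pair. Of its 269 counts over all libraries S100a8 gave 195 and S100a9 gave 2. The sum is thus mostly S100a8, and a change of the neutrophil markers as a set was not tested. The part of other cells in the sums of the cycle genes was not tested.

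**Figure D3:**
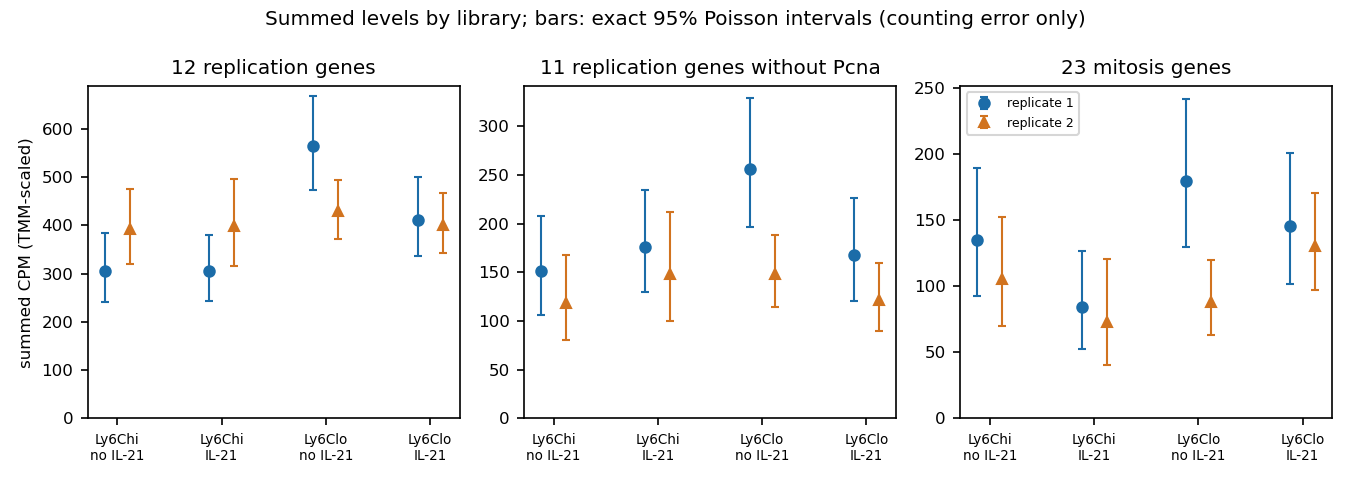
Summed CPM of the 12 replication genes, of the 11 without Pcna and of the 23 mitosis genes (panels with their own axes from 0) in the 4 groups, with circles for replicate 1 and triangles for replicate 2. Bars are the 95% Poisson interval of the summed count by the exact formula, which covers counting error only. The Ly6Chi points with IL-21 are the lowest 2 of the mitosis panel, at 84.0 and 72.7 CPM, and the highest point of every panel is replicate 1 of Ly6Clo without IL-21.

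All 40 genes together summed to 536 ± 23.7 CPM in Ly6Chi without IL-21, 471 ± 75.3 with it, 743 ± 227 in Ly6Clo without IL-21, and 643 ± 73.5 with it (SD, n = 2 each). Without Pcna and Ccnd1 the means were 289 ± 57.0, 261 ± 20.4, 365 ± 144 and 318 ± 49.4 CPM (SD, n = 2 each). The widest spread of these sums was within 1 group, Ly6Clo without IL-21, at 467 and 263 CPM.

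The wider cell cycle was covered by 131 further genes, of which 25 passed the filter, and 0 of the 25 were called in any of the 7 comparisons in the fit without a block. In the blocked fit Pttg1 was called in 2 of the 7, both between the subsets, and the other 24 in none. For the averaged IL-21 effect, 7 of the 25 had a log2 fold change above 0, with a median of -0.14, beside 48.7% above 0 and a median of -0.01 over all 5256 genes. Of these lists, all 6 tested replication genes (Cdt1, Gins4, Pold3, Rfc1, Rfc2 and Dnmt1) were below 0, as were 4 of 5 G1 genes and 6 of 8 mitosis genes, while 4 of 6 inhibitors and antiproliferative genes were above 0. Among the 6 replication genes only the change of Rfc2 exceeded its SE, and Rfc1 was at -0.01 (SE 0.25). Of the tested replication members, Mcm3 and Mcm4 were above 0 and Pcna was below 0. For the averaged subset difference 14 of 25 were above 0, with a median of 0.01, beside 50.4% of all genes. None of these values passed the test without the block, and the counts describe the direction of estimates only.

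Rfc2, a subunit of the loader that places Pcna on DNA, had the smallest p of these genes for IL-21. It was at 218 and 262 CPM in Ly6Chi without IL-21, 162 and 156 with it, 317 and 275 in unstimulated Ly6Clo, and 229 and 245 with IL-21. The groups with and without IL-21 did not overlap within either subset, at a log2 fold change of -0.46 (SE 0.17, edgeR adjusted p = 0.783). Its 3' end lies within Lat2 on the opposite strand, so its counts are uncertain. Cdk6, the kinase partner of the D cyclins, was at 185 and 149 CPM in Ly6Chi without IL-21 and 113 and 79.4 with it. In Ly6Clo it was at 270 and 148 CPM without IL-21 and 196 and 111 with it, at a log2 fold change of -0.60 over both subsets (SE 0.26, edgeR adjusted p = 0.853) that ran from -0.82 to -0.37 with 1 library left out. Cdk6 was lower with IL-21 in every same-numbered pair. It also differed between the numbers, at a log2 fold change of -0.67 for number 2 against number 1 (edgeR adjusted p = 0.0170). With the number as a block, the lowest edgeR adjusted p of the 25 genes for the averaged IL-21 effect was 0.112, so none was called. Pttg1, the securin that delays the separation of sister chromatids, and E2f4, an E2F factor of resting cells, had log2 fold changes of -0.34 (SE 0.21) and -0.62 (SE 0.41) with IL-21. With 1 library left out these ran from -0.57 to -0.17 and from -1.18 to -0.39.

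Among the brakes on the cycle, Cdkn1a, which encodes the inhibitor p21, was at 333 and 259 CPM in Ly6Chi without IL-21, 256 and 268 with it, 162 and 250 in unstimulated Ly6Clo, and 280 and 251 with IL-21. Its log2 fold change with IL-21 was 0.08 (SE 0.18), and it crossed 0 when 1 library was left out. Cdkn1b, which encodes p27, was higher with IL-21 in 3 of 4 same-numbered pairs, at 57.5 and 30.5 CPM in Ly6Chi without IL-21, 75.2 and 49.6 with it, 58.1 and 47.1 in unstimulated Ly6Clo, and 75.9 and 41.9 with IL-21. That change of 0.34 on the log2 scale (SE 0.31) did not pass, and it ran from 0.13 to 0.60 with 1 library left out. Ccnd2 and Ccnd3, the other D cyclins, were not tested and had at most 37.3 and 16.5 CPM in a library. Ccnd2 was at 22.6 and 19.1 CPM in Ly6Chi without IL-21, 11.3 and 14.9 with it, 24.2 and 37.3 in unstimulated Ly6Clo, and 5.99 and 17.7 with IL-21. These values rest on only 5.5 and 5, 3 and 3, 5.83 and 17, and 1.5 and 7.17 counts, in the same order.

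Between the subsets, Pttg1 had the smallest p of these genes. It was at 328 and 285 CPM in Ly6Chi without IL-21 and 166 and 230 with it, against 124 and 183 in unstimulated Ly6Clo and 112 and 190 with IL-21. The averaged log2 fold change was -0.65 (SE 0.21, edgeR adjusted p = 0.428). In the blocked fit it was -0.67 (SE 0.17, edgeR adjusted p = 0.0299), which passed. So did the blocked value for the comparison without IL-21 (edgeR adjusted p = 0.0421). Within a number, the averaged difference in log2 CPM, with a small constant added to the counts, was -0.94 in number 1 and -0.44 in number 2. The values of Pttg1 were not whole in 8 of 8 libraries, so part of its reads may have been shared. Rb1, the retinoblastoma protein that holds E2F in check, was at 90.1 to 102 CPM in Ly6Chi and 53.8 to 73.4 CPM in Ly6Clo. The 2 ranges did not overlap, but the log2 fold change of -0.62 (SE 0.23) missed the threshold (edgeR adjusted p = 0.531), and its 3' end lies within Rcbtb2 on the opposite strand. Rfc2 (0.43, SE 0.17, edgeR adjusted p = 0.537) and Pold3, a subunit of DNA polymerase delta (-0.72, SE 0.37, edgeR adjusted p = 0.657), did not pass either, and Pold3 ran from -1.01 to -0.35 with 1 library left out.

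**Figure D4:**
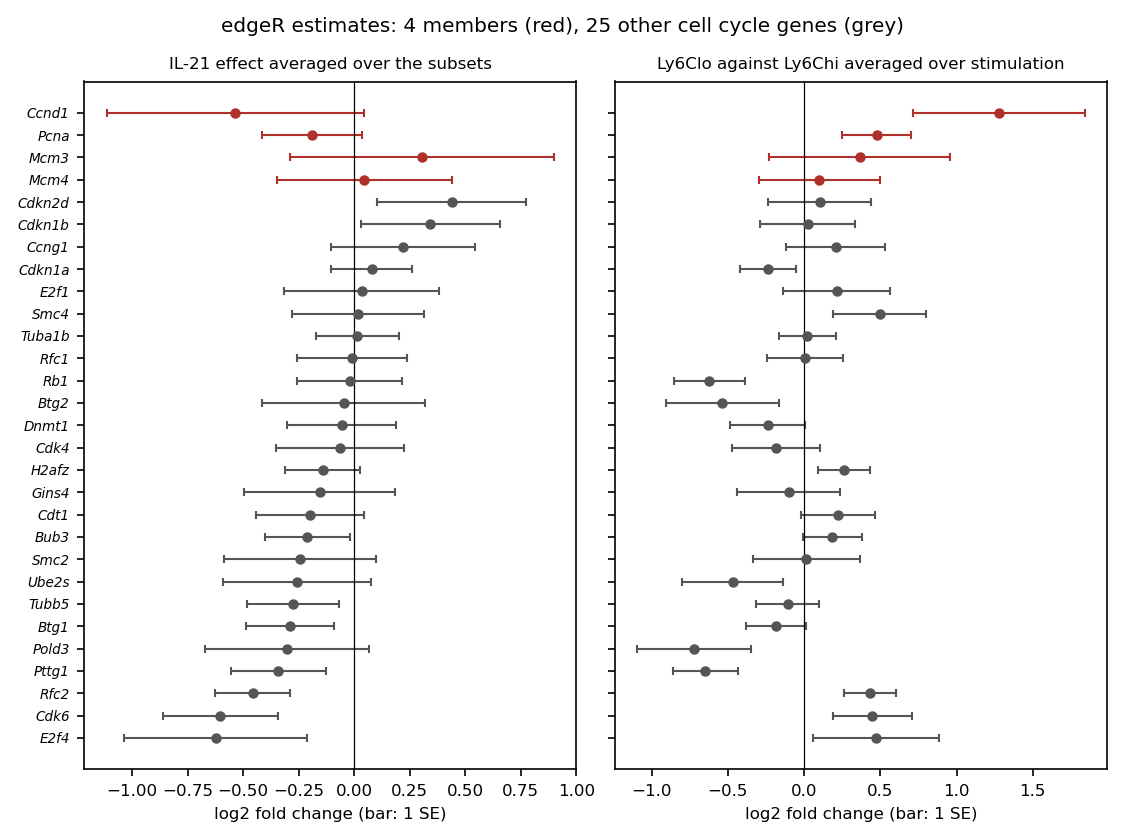
Log2 fold changes from edgeR for the 4 tested members (red) and the 25 other tested cell cycle genes (grey), for the IL-21 effect averaged over the subsets (left) and for Ly6Clo against Ly6Chi averaged over stimulation (right), with bars of 1 SE on either side. No gene of either panel passed the test without the block; Ccnd1 is farthest to the right on the right side, at 1.28, and E2f4 and Cdk6 are farthest to the left on the left side, at -0.62 and -0.60.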

How the data were processed

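Polyadenylated RNA was measured with a QuantSeq 3' kit and its module for unique molecular identifiers, with single-end reads of 75 bases, per the labels' protocols. The authors deposited expected counts, called raw in the file headers, for Ensembl genes, and 53.3 to 59.7% of values above 0 were not whole at a tolerance of 0.001. Per the submitters' processing notes, the build was mm10 and DESeq2 was a tool, with no version. Not given in the sources used here are the aligner, counting program and annotation, and whether identifiers and strand were used. Intervals cover counting error only, and without identifiers counts include amplified copies.

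Of 53342 identifiers, 53237 matched GENCODE M21. Counts were rounded, filtered with filterByExpr (count at least 10, total at least 15, 5256 genes kept) and scaled by TMM. A model of the 4 group means was fitted in edgeR 4.0.16 under R 4.3.3 with limma 3.58.1. The robust quasi-likelihood F test had 4 residual degrees of freedom, and genes were called at a Benjamini-Hochberg adjusted p under 0.05. An SE printed for edgeR was derived from this test, as the absolute log2 fold change divided by the square root of F. Sums of CPM used unrounded values of every member, with 95% Poisson intervals by the exact formula. Most summed counts were not whole, so these intervals are approximate. The script was tested on simulated data. DESeq2 1.42.0, limma-voom, other filters and scalings, a replicate block and leaving out each library were tried as alternatives.

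Replicate numbers come from the titles, which do not say what they mark. All 6 correlations between groups of the number 1 minus number 2 deviations over genes were 0.23 to 0.41, so the numbers were taken to pair the samples. Between the numbers 430 of 5256 genes were called. The main test nevertheless left the number out of the model, so its calls ignore this pairing. The fit with the number as a block is given beside it, and there Ccnd1 and Pttg1 were called between the subsets.

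The members and lists were chosen with earlier results of these data known. Values in every library are given for the tested members and the 8 others with the most counts. Of the 131 further cell cycle genes, those named are the 4 with the smallest p for IL-21 and the 4 for the subsets, plus Cdkn1a, Cdkn1b, Ccnd2 and Ccnd3. Mki67, Top2a and the remaining members were described beyond that rule. Promoter windows are RefSeq's, and a promoter motif was searched as letters on both strands. One marker result is not reported here.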

Additional observations from a re-analysis of the deposited data

Results flagged for a closer look

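The sum of the 11 replication genes without Pcna was higher with IL-21 in both same-numbered pairs of Ly6Chi and lower with it in both pairs of Ly6Clo. In Ly6Chi the ratio with over without IL-21 was 1.17 in number 1 and 1.26 in number 2, and in Ly6Clo it was 0.654 and 0.818. The ratio of Ly6Clo over Ly6Chi was 1.70 and 1.25 without IL-21, and 0.952 and 0.815 with it. This difference was not tested, since the members were chosen with results of these data known, and these sums rest on 29.9 to 67.5 counts per library. Mcm3 and Mcm4, the only genes of the sum without Pcna that had a test of their own, did not pass for the difference of the IL-21 effects in edgeR. Their log2 values were -1.21 (SE 1.19) and -0.81 (SE 0.79).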

How the results depend on the processing

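The count of members called was 0 in 108 of 109 alternative values over the 7 comparisons, which used DESeq2, limma-voom, DESeq2's size factors, unrounded values, no filter (39 members tested), a mean count of at least 20 (1 member tested), a replicate block, each library left out in turn and, for the 4 comparisons within a subset or a stimulation state, only the libraries of that state. The exception was the replicate block for Ly6Clo against Ly6Chi averaged over stimulation, with 1 member called (Ccnd1), and the block changed no other call among the members. Over all genes the block raised the calls from 10 to 132 there, and the calls for IL-21 averaged over the subsets from 9 to 60. With no filter these were 58 and 35. Leaving out 1 library moved log2 estimates across 0 for Pcna with IL-21 (-0.45 to 0.044), Mcm3 with IL-21 (-0.13 to 0.92), Mcm4 with IL-21 (-0.23 to 0.47), Cdkn1a with IL-21 (-0.049 to 0.27), and Mcm3 (-0.24 to 0.83) and Mcm4 (-0.18 to 0.53) between the subsets. Ccnd1 between the subsets kept its sign at 0.75 to 1.65. With limma-voom Mcm3 between the subsets was -0.11. Summing only members that passed the filter gave replication sums of 258, 257, 374 and 322 CPM and sums of all members of 291, 278, 457 and 384 CPM (Ly6Chi without and with IL-21, Ly6Clo without and with IL-21), because fewer genes were summed, and no mitosis gene was left. With deposited totals in place of TMM the replication sum of Ly6Clo with IL-21 was 375 CPM and the sum of all members in Ly6Chi without IL-21 was 497 CPM. The main CPM divides by the total of the tested genes times the TMM factor. Deposited totals also hold the genes that were filtered out, so this divisor was larger in every library. In number 1 of Ly6Clo with IL-21 it was 269064 in place of 250213. The cause was not tested for the other changes. The sums without Pcna, and without Pcna and Ccnd1, were chosen after seeing the data. Depth limits these results, since 36 of 40 members had too few counts to test.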
